A study of Homo sapiens with 4 samples.

Results

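The genes described here are chondroitin sulfate core proteins and genes that make, bind or break down hyaluronan, 10 in all. They are VCAN, SRGN, BGN, CSPG4, CD44, HAS2, HAS3, HYAL1, HYAL2 and CEMIP, chosen by symbol from a list drawn up with results of these arrays known. The platform annotation gave 33 probe sets that named 9 of them alone, out of 19775 genes with such a probe set. HYAL1 had none and was not analysed here. Gene expression was measured on Affymetrix 1-colour arrays in human lung cancer lines that were stably transduced and selected with antibiotic. The 4 groups were NCI-H358 with the CHST11 vector, NCI-H358 with the empty vector, A549 with the CHST11 vector and A549 with the empty vector. A549 is a lung adenocarcinoma line and NCI-H358 a bronchioloalveolar carcinoma line. Each group had 1 array, so no value within a group has a replicate, and whether the transduced cells were a clone or a pool was not given in the sources used here.

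Chondroitin sulfate is a chain of repeated sugar pairs built in the Golgi on serine residues of core proteins, and CHST11 adds sulfate to it. Versican and biglycan are secreted core proteins of the extracellular matrix, serglycin packs secretory granules, and CSPG4 spans the cell membrane. Hyaluronan is a related chain with no core protein and no sulfate: HAS enzymes spin it out through the plasma membrane, CD44 binds it at the cell surface, and hyaluronidases and CEMIP bring about its breakdown. Versican also binds hyaluronan, and CD44 can itself carry chondroitin sulfate, so the chains meet in the same pericellular coat.

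The promoters of CEMIP, VCAN and CD44 are shown because these genes carried the vector and cell line differences described below. Each is the 250 bases before the RefSeq gene start on GRCh38.p14, plus strand, 5′ to 3′, at chr15:80779120-80779369 for CEMIP, chr5:83471494-83471743 for VCAN and chr11:35138921-35139170 for CD44. Capitals mark matches to a GC box (GGGCGG) or a TATA box (TATAAA) on either strand.
CEMIP: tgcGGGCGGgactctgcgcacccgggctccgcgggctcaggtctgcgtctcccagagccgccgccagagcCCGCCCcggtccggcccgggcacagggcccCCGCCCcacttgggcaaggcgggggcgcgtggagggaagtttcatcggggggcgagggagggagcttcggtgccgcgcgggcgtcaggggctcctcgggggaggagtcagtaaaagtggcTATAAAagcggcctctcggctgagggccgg
VCAN: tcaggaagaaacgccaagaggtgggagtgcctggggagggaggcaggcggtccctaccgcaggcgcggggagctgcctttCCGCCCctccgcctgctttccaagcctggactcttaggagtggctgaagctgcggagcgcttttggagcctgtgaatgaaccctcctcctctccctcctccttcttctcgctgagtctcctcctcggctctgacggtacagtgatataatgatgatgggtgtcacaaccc
CD44: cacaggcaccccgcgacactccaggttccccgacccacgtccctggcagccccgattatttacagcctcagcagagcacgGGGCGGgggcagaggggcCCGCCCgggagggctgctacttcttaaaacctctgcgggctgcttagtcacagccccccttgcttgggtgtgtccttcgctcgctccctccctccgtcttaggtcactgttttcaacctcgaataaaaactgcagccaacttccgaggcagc
Of the 10 genes, 8 had a promoter in the RefSeq table, and HAS2 and SRGN did not. CEMIP held 3 GC boxes and a TATA box that began 30 bases before the start, VCAN held 1 GC box and CD44 held 2. Of all 27305 promoters of this length, 42.3% held a GC box and 11.1% a TATA box. CEMIP was the only one of the 8 with the TATA box. AP-1 (TGANTCA), CRE (TGACGTCA), CCAAT and NF-kB motifs were also searched on both strands, with shares of 6.60%, 1.77%, 33.0% and 9.57% of all promoters, and none of them matched in the 8 promoters. The marked motifs did not overlap. CEMIP had 28 CpG pairs in this window, CD44 had 15 and VCAN had 12, against a median of 11 over all promoters.

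Values are MAS5 signals on a linear scale, and the number of arrays limits their precision. Before log2 was taken, any signal under 16.1 (the 50th percentile over the whole table) was raised to it. A probe set was counted as measured in a line when at least 1 of its arrays reached 27.0, the 60th percentile. By this filter 7 of the 10 genes were measured in A549 and 5 in NCI-H358. The vector was visible at 1 of the 3 CHST11 probe sets: 219634_at had signals of 1058 with the CHST11 vector and 220.1 with the empty vector in NCI-H358, and 343.5 with CHST11 and 129.0 with the empty vector in A549. All 6 epithelial markers reached the filter on every array. CDKN2A, a gene known to be deleted in A549, had signals of 804 and 668 in NCI-H358 and of 23.9 and 18.4 in A549, below the filter there.

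The first comparison asked which of these genes differed between the CHST11 and empty vectors within a line. CEMIP was lower with CHST11 in A549 and higher with CHST11 in NCI-H358, and HAS2 was higher with CHST11 in A549. VCAN was a little lower in A549 at all of its probe sets, and HYAL2, with 1 probe set, was a little higher there. CD44 and HAS3 differed less at their leading probe sets. In A549, 1 of the 7 measured genes differed at least 2-fold, CEMIP, where 0.114% of all 11448 measured genes did and 0.0786% were lower by that much. In NCI-H358, 0 of 5 did, where 0.0527% of 11395 did. At 1.5-fold the counts were 2 of 7, CEMIP and HAS2, against 1.21% of all genes in A549 (0.489% higher, 0.716% lower), and 0 of 5 against 1.17% in NCI-H358. HAS2 was counted as measured only through A549 with CHST11, the array where it was higher (27.9, filter 27.0). These vector ratios were among the results known when the genes were chosen, so they are a description with no test. As a gauge of measurement scatter, log2 ratios of different probe sets of a gene had an SD of 0.17 in NCI-H358 and 0.16 in A549. That gauge leaves out the spread between cultures.

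**Figure D1:**
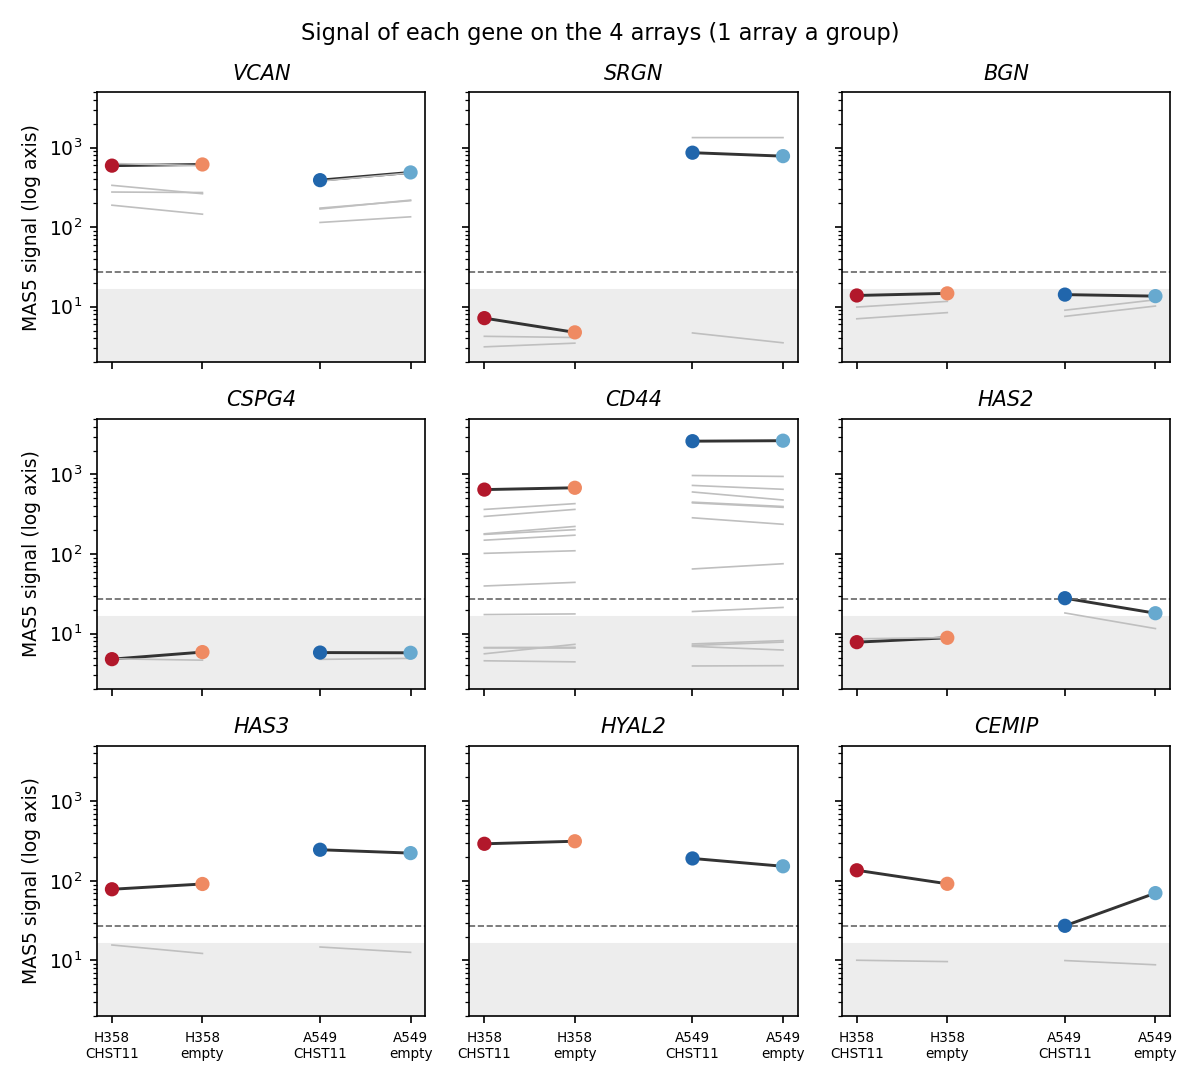
MAS5 signal (log axis) of the 9 genes with a probe set on the 4 arrays, NCI-H358 at left and A549 at right, with the CHST11 array left of the empty vector array. Dots are the probe set that stands for the gene, grey lines the others, the dashed line the filter at 27.0 and the shaded band values under the floor of 16.1: SRGN is high on both A549 arrays only, and CEMIP slopes in opposite directions in the lines.

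VCAN encodes versican, the large hyaluronan-binding chondroitin sulfate proteoglycan. Its leading probe set, 204620_s_at, had signals of 593 with CHST11 and 614 with the empty vector in NCI-H358, and of 389.9 with CHST11 and 487 with the empty vector in A549. Both NCI-H358 arrays lay above both A549 arrays. In A549 all 5 probe sets were lower with CHST11, from log2 -0.37 to -0.24 with a median of -0.32, beyond the scatter gauge of 1 SD. The leading probe set ranked 444 from the lowest of 11448 genes. Probe sets of a gene read the same RNA, so they are not replicates. In NCI-H358 the probe sets split. The probe sets 204619_s_at (189 with CHST11, 146 with the empty vector) and 215646_s_at (336 with CHST11, 263 with the empty vector) were higher with CHST11 by log2 0.38 and 0.35, while the other 3 lay between -0.05 and 0.09. Which versican transcripts each probe set reads was not used here.

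The other core proteins gave no vector difference that could be measured. SRGN, serglycin, had signals at 201858_s_at of 7.19 and 4.76 with CHST11 and the empty vector in NCI-H358, and of 863 and 781 in A549. The NCI-H358 signals were far under the floor, so no ratio was formed there, and the A549 ratio was log2 0.14. A further probe set, 201859_at, had 1336 on both A549 arrays, and the third stayed below 5 on all 4 arrays. BGN, biglycan, had signals from 7.05 to 14.7 over its 3 probe sets and 4 arrays. CSPG4, a proteoglycan of the cell membrane, had signals from 4.63 to 5.85 over its 2 probe sets. Neither reached the filter anywhere, so no fold is given for them.

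CD44, the main cell surface receptor for hyaluronan, was bright in both lines. At 212063_at it had signals of 645 with CHST11 and 680.5 with the empty vector in NCI-H358, and of 2622 with CHST11 and 2659 with the empty vector in A549. The arrays of a line were nearly equal, with ratios of log2 -0.08 in NCI-H358 and -0.02 in A549. Other CD44 probe sets moved further. In A549 the 8 measured ones ran from log2 -0.22 at 229221_at (64.9 with CHST11, 75.5 with the empty vector) to 0.33 at 1557905_s_at (603 with CHST11, 478 with the empty vector), with 6 above 0. In NCI-H358 all 8 lay below 0, and the largest ratio in size was -0.31, at 212014_x_at (179.6 with CHST11, 222 with the empty vector). CD44 is known for its many spliced forms, and which of them each probe set reads was not used here.

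Of the hyaluronan synthases, HAS3 was measured in both lines and HAS2 in A549 only. HAS3 had signals at 223541_at of 78.5 with CHST11 and 91.5 with the empty vector in NCI-H358, and of 246 with CHST11 and 224 with the empty vector in A549. Its ratio was log2 -0.22 in NCI-H358, larger in size than the scatter gauge of 0.17, which is 1 SD, and ranked 909 from the lowest of 11395 genes. In A549 it was 0.14, within the gauge of 0.16. The other HAS3 probe set, 1552980_at, had signals from 12.2 to 15.6, under the floor on every array, and gave no ratio. HAS2 had signals at 206432_at of 7.80 with CHST11 and 8.86 with the empty vector in NCI-H358, and of 27.9 with CHST11 and 18.0 with the empty vector in A549. It passed the filter on 1 array, A549 with CHST11, where it stood 1.55-fold above the empty vector and ranked 40 from the highest of 11448 genes. The dimmer probe set 230372_at, below the filter, had 18.2 with CHST11 and 11.6 with the empty vector in A549, with the empty vector under the floor. That ratio was 1.12-fold with the floor and 1.57-fold without it. The only HAS2 ratio from a probe set past the filter is that of 206432_at, at signals near the floor.

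HYAL2, a hyaluronidase anchored at the cell surface, had signals of 293 with CHST11 and 315 with the empty vector in NCI-H358, and of 191.5 with CHST11 and 152.7 with the empty vector in A549. The NCI-H358 arrays were the higher ones. Its ratio was log2 0.33 in A549, which ranked 354 from the highest, and -0.11 in NCI-H358. HYAL2 has 1 probe set, so the A549 ratio has no further probe set beside it.

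CEMIP, a secreted protein that binds hyaluronan and is needed for its depolymerisation in several human cell types, had the widest vector differences. At 212942_s_at it had signals of 136 with CHST11 and 91.9 with the empty vector in NCI-H358, and of 27.3 with CHST11 and 70.2 with the empty vector in A549. A549 with CHST11 was the lowest of the 4 arrays and NCI-H358 with CHST11 the highest, so the CHST11 arrays stood on either side of the empty vector arrays. The A549 ratio was log2 -1.37, 2.58-fold lower with CHST11, and ranked 4 from the lowest of 11448 genes. The NCI-H358 ratio was log2 0.57, 1.48-fold higher with CHST11, and ranked 117 from the highest of 11395. The A549 signal with CHST11 lay just above the filter. The other probe set, 1554685_a_at, stayed between 8.82 and 10.1 on all 4 arrays and gave no ratio. The CEMIP difference therefore rests on 1 probe set and 1 array a group, and whether the lines differ in their response was not tested.

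**Figure D2:**
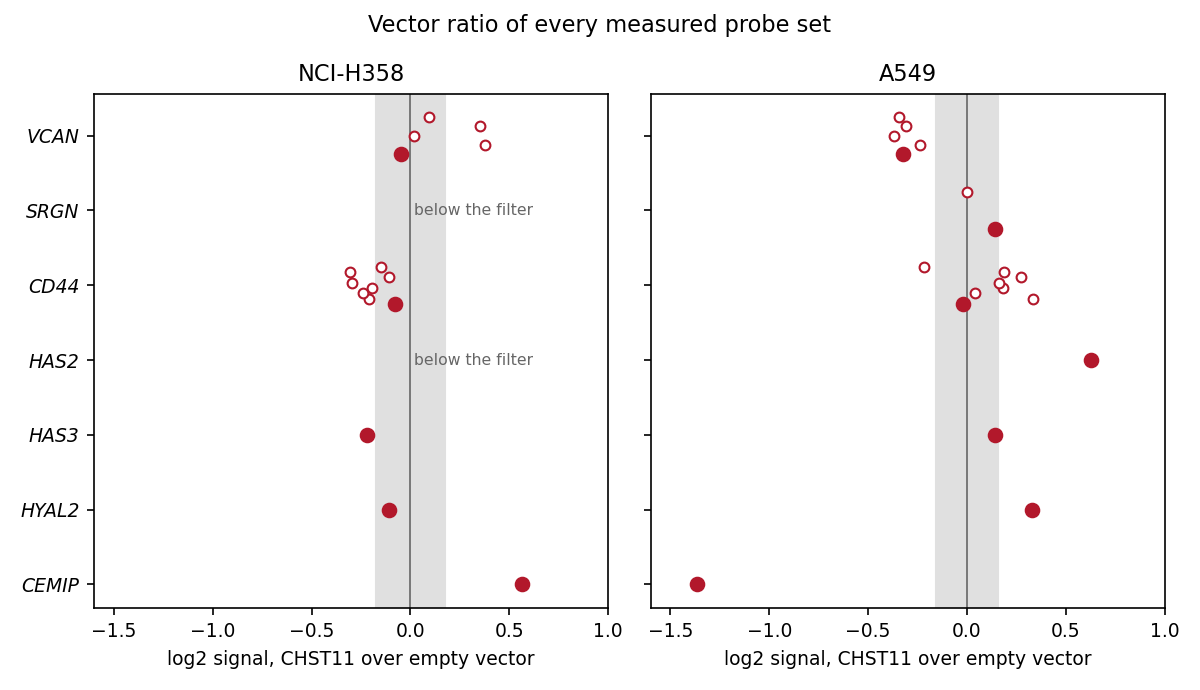
Log2 signal with the CHST11 vector over the empty vector for every measured probe set, NCI-H358 at left and A549 at right. Filled points are the probe set that stands for the gene, open points the others, and the grey band is 1 SD of ratios between probe sets of a gene (0.17 and 0.16): CEMIP lies outside it on opposite sides, and all 5 VCAN points lie below it in A549.

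Vector ratios of a list of 76 genes with long mRNAs are given beside those of CEMIP and VCAN. The list was written after such a shift was known in these arrays, so its values are a description, and 65 of its genes were measured in each line. In A549, 63 of them lay below 0, with a median of log2 -0.36 against 0.01 for all genes. In NCI-H358, 54 lay above 0, with a median of 0.16 against 0.00. The scatter gauge of 0.17 is for a single ratio and does not measure the spread of this median. VCAN in A549 (-0.32) was close to the list's median, while CEMIP (-1.37) was lower than the lowest gene of the list (-0.88). In NCI-H358 CEMIP (0.57) was within the list's range, which ended at 0.82. VCAN at its leading probe set (-0.05) lay on the other side of 0 from the list's median. Of the 5 VCAN probe sets 4 were above 0 there, with a median of 0.09. mRNA lengths were not in the sources used here, and the part of this shift in the CEMIP and VCAN ratios was not tested.

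The genes whose pattern over the 4 arrays was most like that of CEMIP were SGPP2, PAGE5, FBN1, ADGRL3 and KMT2D. Likeness was the Euclidean distance between log2 signals centred on each gene's mean, over 4 arrays and 12271 genes, and ran from 0.53 to 0.63 for these 5. SGPP2, a sphingosine phosphate phosphatase, had log2 ratios of 0.23 in NCI-H358 and -0.73 in A549. FBN1, the microfibril protein fibrillin, had 0.13 in NCI-H358 and -0.88 in A549, and KMT2D, a histone methyltransferase, had 0.22 in NCI-H358 and -0.78 in A549. FBN1 and KMT2D are on the long mRNA list, which held 65 of the 11448 genes measured in A549. That list was written after the shift was known and the likeness was taken from the same arrays. The overlap is therefore a description and was not tested. PAGE5, a cancer testis antigen, had 0.36 in NCI-H358 and -0.91 in A549, and ADGRL3, an adhesion receptor, had 0.75 in NCI-H358 and -0.61 in A549. Signals in A549 were 17.2 with CHST11 and 32.3 with the empty vector for PAGE5, and 18.1 and 27.7 for ADGRL3. For SGPP2 they were 26.9 and 44.6. PAGE5, ADGRL3 and SGPP2 were counted as measured in A549 through the empty vector array alone, where they were higher.

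**Figure D3:**
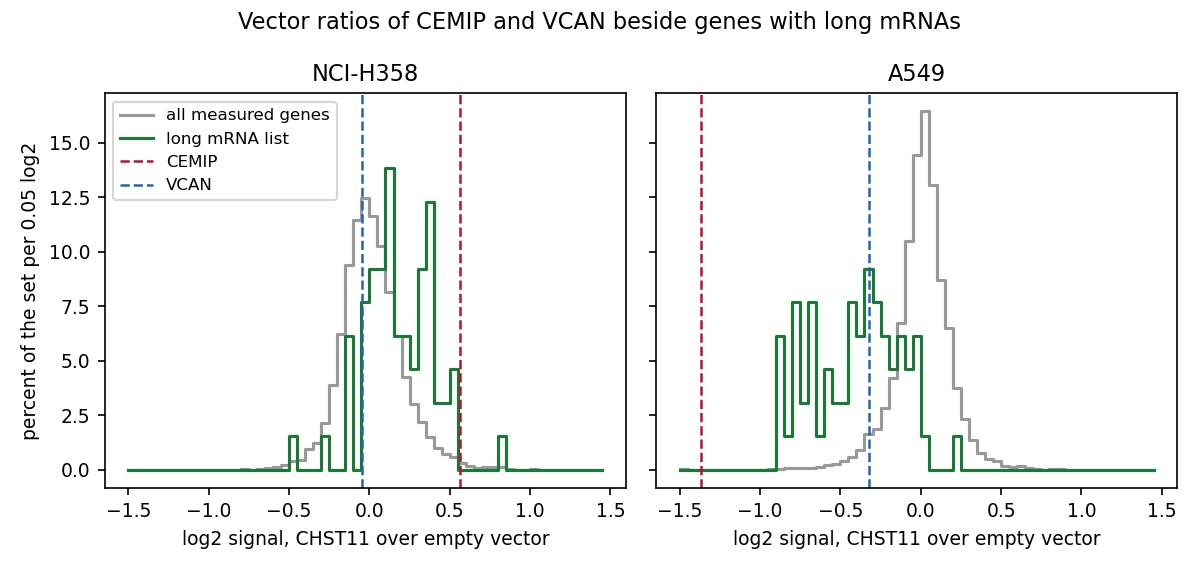
Share of genes per 0.05 log2 of the ratio of the CHST11 vector over the empty vector, for all measured genes (grey) and the long mRNA list (green), NCI-H358 at left and A549 at right. Dashed lines mark CEMIP and VCAN: in A549 the list has its median at -0.36, with VCAN at -0.32 inside it and CEMIP at -1.37 below it.

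The next comparison set the lines against each other over 2 arrays each. SRGN, CD44 and HAS3 were lower in NCI-H358 than in A549, and HYAL2 and VCAN were higher. It was fitted with limma on all 12271 measured genes, with terms for line and vector and Benjamini-Hochberg adjustment over all of them. The test called 5 of the 10 genes at an adjusted p of 0.05, 2 higher and 3 lower in NCI-H358. CEMIP and HAS2 were tested and not called, BGN and CSPG4 were below the filter, and HYAL1 had no probe set. Over all genes the test called 64.5%, 33.9% higher and 30.6% lower, so the count of calls says little about these genes, and the sizes carry the description. SRGN and HAS2 entered the test through A549 alone. The genes were chosen with results of these arrays known. The cultures behind the arrays of a line carried different vectors, so the error covers these 4 cultures only.

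SRGN showed the widest line difference of the group. Its signals in NCI-H358 were under the floor. With those arrays raised to the filter SRGN was at least 30.4-fold lower in NCI-H358 at 201858_s_at and at least 49.5-fold lower at 201859_at. The limma fit at 201858_s_at held NCI-H358 at the floor instead and gave log2 -5.67 (SE 0.09, limma adjusted p = 2.62e-05). Both NCI-H358 arrays took the same floor value there, so their own spread did not enter that error. In bulk RNA, fewer cells that express a gene and less RNA per cell cannot be told apart. Serglycin is best known from blood cells. The common leukocyte marker PTPRC was below the filter on all 4 arrays, as were LYZ and CD48. The summed signal of the 5 leukocyte markers with a probe set was 61.8 and 69.2 in NCI-H358, and 99.0 and 77.8 in A549, where CD3E and CD14 reached the filter on 1 array each.

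CD44 was 3.98-fold lower in NCI-H358 than in A549 at its leading probe set (log2 -1.99, SE 0.09, limma adjusted p = 0.000136). All 8 measured CD44 probe sets were lower in NCI-H358, by 1.68 to 3.98-fold, with no overlap between the arrays of the lines. HAS3 was 2.77-fold lower in NCI-H358 at 223541_at, its 1 measured probe set (log2 -1.47, SE 0.12, limma adjusted p = 0.000729). HYAL2 was 1.78-fold higher in NCI-H358 (log2 0.83, SE 0.13, limma adjusted p = 0.00561), a call lost without NCI-H358 CHST11 (limma adjusted p = 0.0764) and without NCI-H358 empty vector (limma adjusted p = 0.0913).

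VCAN was 1.38-fold higher in NCI-H358 (log2 0.47, SE 0.11, limma adjusted p = 0.0175), and its 5 probe sets gave 1.33 to 1.54-fold. The call was lost without NCI-H358 CHST11 (limma adjusted p = 0.170), without NCI-H358 empty vector (limma adjusted p = 0.194) and without A549 CHST11 (limma adjusted p = 0.0634). Of the fibroblast markers COL1A2, COL3A1, LUM, PDGFRB and PDGFRA were below the filter on all arrays, and COL1A1 and THY1 were the 2 of 7 that reached it. The summed signal of these 7 markers was 225 and 239.8 in NCI-H358, and 238 on each A549 array.

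CEMIP was higher in NCI-H358 by log2 1.35, but with an SE of 0.46 it was not called (limma adjusted p = 0.0559). The call changed with the setting: 7 alternatives called it, with limma adjusted p from 0.0217 to 0.0478, among them quantile normalization and the fit without the vector term. The size depended on the vector: the empty vector arrays alone gave log2 0.39 and the CHST11 arrays alone 2.32. HAS2 had a fitted difference of log2 -0.47 (SE 0.17, limma adjusted p = 0.0655) with NCI-H358 held at the floor. With no floor it was -1.43 and was called (limma adjusted p = 0.0082), from signals of 7.80 to 27.9. HAS2 was also called with the floor at the 25th percentile (log2 -1.43, limma adjusted p = 0.0072). Taking the median of measured probe sets called it too (log2 -0.47, limma adjusted p = 0.0347). The other normalizations, the fit without the vector term and testing with no filter did not. Without A549 empty vector, and with the floor, the difference was log2 -0.79, with A549 given by its CHST11 array alone, where HAS2 was higher. Arrays of the lines did not overlap for any of the 7 measured genes, which also held for 85.7% of all genes tested.

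**Figure D4:**
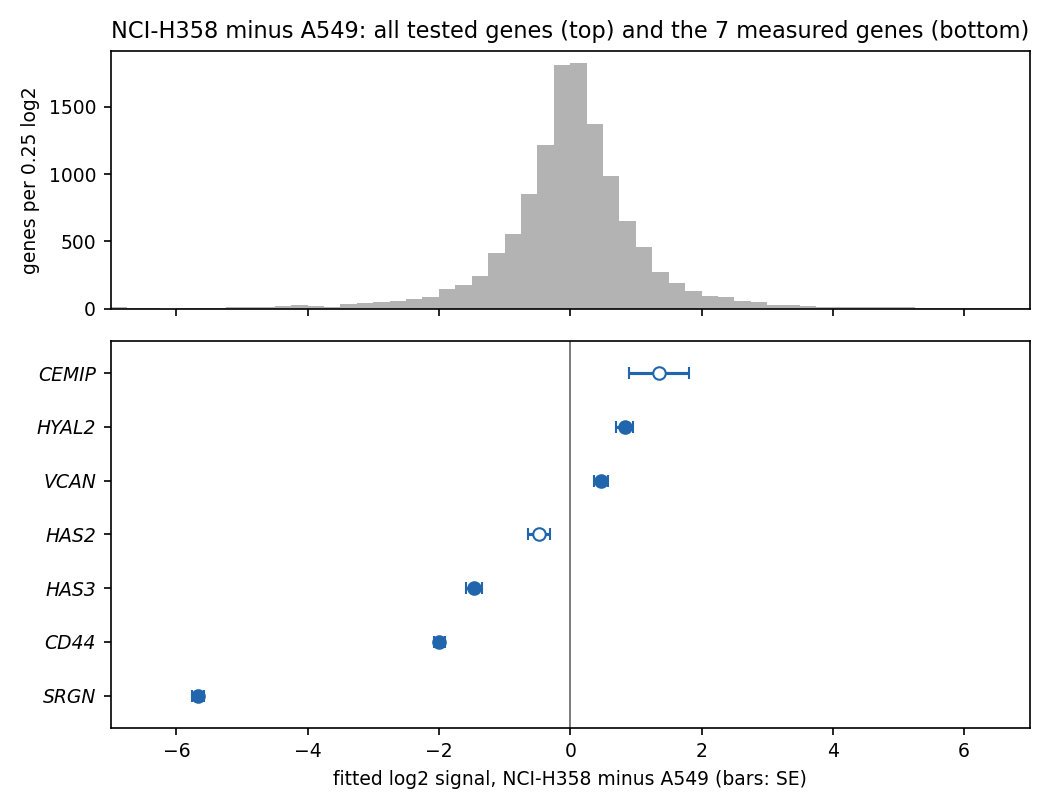
Fitted log2 signal of NCI-H358 minus A549, as a histogram of all 12271 tested genes (top) and for the 7 measured genes with SE bars (bottom). Filled points were called by limma at an adjusted p of 0.05, and the SRGN and HAS2 values were set by the floor in NCI-H358: SRGN, CD44 and HAS3 lie left of 0, HYAL2, VCAN and CEMIP right of it.

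At least 2-fold apart between the lines, with arrays under the filter raised to it, were 4 of the 7 measured genes, SRGN, CD44, HAS3 and CEMIP, where 21.5% of all tested genes were. Lower in NCI-H358 at that size were 3 of them, against 10.6% of all genes, and higher was CEMIP, against 10.9%. SRGN passed the filter through A549 alone, where it was higher. The CEMIP difference was log2 0.39 on the empty vector arrays alone and 2.32 on the CHST11 arrays alone. Since the genes were chosen with results of these arrays known, these counts are a description.

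The lists of related genes below are read against the shares called over all genes, 33.9% higher and 30.6% lower in NCI-H358. Of 24 further genes of hyaluronan handling, 10 were tested, 0 were called higher and 4 lower in NCI-H358, and 6 were not called, with a median difference of log2 -0.29 against 0.03 for all genes. The 4 called of 10 are a smaller share than the 64.5% over all genes. UGDH, the enzyme that makes the glucuronate precursor of hyaluronan and chondroitin, had signals of 767 and 573 in NCI-H358 and 2809 and 2793 in A549 (log2 -2.08). CEMIP2, a cell surface relative of CEMIP, had 225 and 187.8 in NCI-H358 and 593 and 714 in A549 (log2 -1.66). The other called genes were LAYN, a hyaluronan receptor, and ITIH2, a heavy chain that is joined to hyaluronan, which entered the test through A549 alone. HMMR, a further hyaluronan receptor, lay at log2 -0.01 and HABP4 at 0.16, and neither was called. Between the vectors 0 of these genes differed at least 2-fold. Their ratios ran from log2 -0.24 to 0.42 in NCI-H358, where UGDH was the highest, and from -0.51 to 0.34 in A549.

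Other chondroitin or dermatan sulfate core proteins went both ways between the lines. Of 24, 13 were tested, 5 were called higher and 5 lower in NCI-H358, with a median of log2 -0.19. Among those called lower, TGFBR3, THBD and SPOCK1 entered the test through A549 alone. Among those called higher, CD74 entered it through NCI-H358 alone. SDC4, a syndecan that carries mainly heparan sulfate, had signals of 1223 and 1449 in NCI-H358 and 153 and 165 in A549, which was 8.36-fold higher in NCI-H358. APLP2, a relative of the amyloid precursor protein, was 2.65-fold higher in NCI-H358. Lower there were TGFBR3, the TGF-beta coreceptor betaglycan, with 18.0 and 15.8 in NCI-H358 and 169 and 189 in A549, and thrombomodulin, THBD, with 10.5 and 10.8 in NCI-H358 and 108 and 107 in A549. With NCI-H358 raised to the filter these were at least 6.62-fold and at least 3.97-fold lower. Between the vectors none of this list differed at least 2-fold. COL12A1, a fibril-associated collagen, alone passed 1.5-fold, at log2 -0.60 in A549, where 0.716% of all genes were lower by that much.

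Of 7 proteases known to cleave versican, 4 were tested, 2 were called higher and 1 lower in NCI-H358. ADAMTS15 was 3.25-fold higher in NCI-H358, with 129.9 and 129.7 there against 46.4 and 34.3 in A549. ADAMTS1 had 33.9 and 32.1 in NCI-H358 and lay below the filter in A549. ADAMTS4 had 31.2 and 29.5 in NCI-H358 and 33.3 and 30.9 in A549 and was not called (log2 -0.08). ADAMTS9 lay below the filter in NCI-H358 and had 71.1 with CHST11 and 45.6 with the empty vector in A549, a vector ratio of log2 0.64. The 3 of these measured in A549 had vector ratios from 0.11 to 0.64 there, against a median of 0.01 over all genes. ADAMTS9 alone passed 1.5-fold, where 0.489% of all 11448 measured genes were higher by that much. The 3 measured in NCI-H358 lay between 0.00 and 0.08.

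Among partners, cleavage and splicing factors of CD44, 8 of 9 genes were tested, 2 were called higher and 4 lower in NCI-H358. ESRP1, an epithelial splicing factor known to act on CD44, had signals of 832 and 822 in NCI-H358 and of 11.8 and 12.7 in A549. With A549 raised to the filter it was at least 30.6-fold higher in NCI-H358. SPP1, osteopontin, a CD44 ligand, had 172 and 158 in NCI-H358 and 2186 and 2313 in A549. RDX, radixin, which links CD44 to actin, was lower in NCI-H358 (log2 -1.12), and ADAM17, a sheddase, was higher (log2 0.28). Between the vectors the largest ratios of this list were log2 0.22 for ADAM10 in NCI-H358 and -0.15 for EZR in A549.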

How the data were processed

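Signals were measured on 4 arrays, 1 a group, of A549 and NCI-H358 cells with the CHST11 or empty vector. The authors deposited linear intensities made with MAS5, per the submitters' processing notes. Its version, scaling target, detection calls and any later step were not given in the sources used here. Close 75th percentiles, 85.2 to 88.2, leave a further normalization possible. The arrays of a line shared 0 equal values in NCI-H358 and 1 in A549 and were kept as separate measurements. Of the probe sets, 41091 had 1 gene symbol in the platform annotation, 1801 had several and 11721 none, and 62 controls were left out.

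Where several probe sets named a gene alone, the brightest by mean unfloored log2 stood for it. The line difference was tested by lmFit and eBayes of limma 3.58.1, run in R 4.3.3 (1 residual and 3.54 prior degrees of freedom) and tested on simulated data. Python 3.11.15, pandas 2.3.3 and matplotlib 3.10.9 were used for tables and plots. The text names all 10 genes. Of the other lists it names the 2 highest and 2 lowest by line difference with arrays under the filter raised to it, and any gene at least 2-fold apart between vectors. It also names the 5 genes nearest to CEMIP. LAYN, ITIH2, COL12A1, SPOCK1, CD74, ADAM10 and EZR lie outside that rule and were named after their values were seen. The genes, lists and tests were chosen with earlier results of these data known, and the long mRNA list was written from general knowledge after such a shift was known. Alternatives were other normalizations, floors, filters, probe set rules, fit terms and leaving out an array.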

Additional observations from a re-analysis of the deposited data

Results flagged for a closer look

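CEMIP had vector ratios of opposite sign in the lines, log2 0.57 in NCI-H358 and -1.37 in A549, each beyond the SD of ratios between probe sets of a gene in its line. The NCI-H358 ratio minus the A549 ratio was 1.93. With 1 array a group the difference was not tested. A list of 65 measured genes with long mRNAs had medians of 0.16 in NCI-H358 and -0.36 in A549, and its part in the CEMIP difference was not tested.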

How the results depend on the processing

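No called difference changed sign under the settings run. Of the vector ratios, which have no test, VCAN in NCI-H358 and CD44 in A549 did. CEMIP kept ratios of 0.55 to 0.60 in NCI-H358 and -1.39 to -1.34 in A549 under every setting that measured it. With 1 measured probe set and all signals above the floor, only the normalizations could move these ratios. With the filter at the 75th percentile CEMIP was not measured in A549, so 0 of the genes described differed at least 2-fold there. That filter left 5 genes of the whole table at least 2-fold apart in A549, against 13, and 3 in NCI-H358, against 6, as did the median of measured probe sets (3). Taking each array's median over probe sets turned VCAN in NCI-H358 to 0.30, against -0.05, and CD44 in A549 to 0.26, against -0.02, and moved CD44 in NCI-H358 to -0.25. Median centring put CD44 in A549 at 0.00. Between the lines, testing with no filter called 1905 genes against 7909 and 2 of the genes described against 5, SRGN and CD44. Leaving out 1 array at a time called 3 to 6 of them and 5345 to 6470 of all genes. SRGN, CD44 and HAS3 were called each time, VCAN only without A549 empty vector, and HYAL2 not without either NCI-H358 array. Those fits had no vector term and assume that the lone array varies like the others. CEMIP was called under quantile, median and cyclic loess normalization, the trend, the fit without vector, the stricter filter and the median of probe sets. The adjustment by protein length was not run, since no protein lengths were used here. No paired analysis was possible because the labels number no replicates, other than by vector, which the line fit already held as a term. Without that term 6 of the genes described were called, CEMIP added. Without detection calls, signals near the floor (HAS2, BGN, CSPG4) have no known distance from background.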
